A study of Rattus norvegicus with 8 samples.

Results

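The 41 genes described here are induced by interferon or serve the presentation of peptides on MHC class I. They were chosen by symbol, with earlier results of these data known. Probes were assigned to them through the RefSeq accession that the array design lists for each probe. Of the 41 genes, 36 were matched to 48 probes and 34 were tested, among 19865 genes tested in all. Values were measured in the right kidney of male rats of the inbred strain F344/NSlc, aged 10 weeks, that was left in place after the operation, and nothing in the labels names a transgene, a mutation or a drug. The sham group held 4 rats and the nephrectomized group held 4 rats from which the other kidney had been removed. The series text places sampling at 2 days after the operation for both groups, but the source label gives 1 day for the sham rats and 2 for the nephrectomized rats, so nephrectomy and a possible difference of a day cannot be told apart in any comparison below. The labels give replicates 1 to 4 of each group without saying more of their origin, so p-values measure the spread between these samples.

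Each rat's total RNA was hybridised to 1 array, and each of 2 slides carried 2 sham and 2 nephrectomized rats (replicates 1 and 2 on slide 1, replicates 3 and 4 on slide 2). Between 54.8% and 65.5% of 41012 gene probes were well above background on an array, lowest in sham rat 1. Of 10 kidney markers, from proximal tubule to podocyte, 10 were well above background on all 8 arrays and none passed the test. Among them, Nphs1 had a log2 value of -3.33 in sham rat 3, against 1.38 to 1.68 in the other sham rats. Its difference between groups was 1.08 (SE 1.03). Values are log2 intensities relative to the 75th percentile of the array, so that 0 is the 75th percentile and 1 unit is a 2-fold difference. They compare rats for the same probe and do not rank genes by abundance.

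Interferons are cytokines that bind receptors on most nucleated cells and act through Janus kinases. Type I interferon signals lead to a factor that contains STAT2 and IRF9 and binds the interferon-stimulated response element, whereas interferon gamma acts through the gamma-activated site. The induced proteins block viral replication, sense nucleic acids, recruit leukocytes and convert the proteasome to an immune form that supplies peptides to MHC class I.

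The promoter sequences that follow are shown because they carry the response element, the motif that the type I interferon factor binds. RefSeq promoters of the GRCr8 assembly (250 bases before to 50 bases after each gene's start) were found for 33 of the 41 genes. The element was searched as GAAANNGAAA on both strands, with overlapping matches counted, and occurred in 22 of the 33 promoters (66.7%), against 1312 of 33469 promoters in the table (3.9%). The gamma-activated site, searched as TTCNNNGAA on both strands, occurred in 10 of the 33 (30.3%), against 8.9% of all promoters. The letters describe these windows and do not show that a factor bound there in these kidneys. For the 6 genes of smallest p that hold the element, the 150 bases before the start are printed 5′ to 3′ along the gene, with the element in capitals. The antiviral genes are Ifit3 (chr1:241527176-241527325, plus strand), Rsad2 (chr6:48788121-48788270, minus strand) and Oas1a (chr12:41330316-41330465, plus strand), in which a pair of overlapping matches forms 1 run of capitals. The others are Ifi44 (chr2:243303841-243303990, minus strand), Parp14 (chr11:78407984-78408133, plus strand) and the immunoproteasome gene Psmb10 (chr19:50743293-50743442, minus strand).
Ifit3: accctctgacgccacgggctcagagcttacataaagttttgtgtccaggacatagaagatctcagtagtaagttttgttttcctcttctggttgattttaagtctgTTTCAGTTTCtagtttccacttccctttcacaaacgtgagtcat
Rsad2: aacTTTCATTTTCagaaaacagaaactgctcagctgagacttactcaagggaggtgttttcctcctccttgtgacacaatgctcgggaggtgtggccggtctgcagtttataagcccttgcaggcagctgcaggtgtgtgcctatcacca
Oas1a: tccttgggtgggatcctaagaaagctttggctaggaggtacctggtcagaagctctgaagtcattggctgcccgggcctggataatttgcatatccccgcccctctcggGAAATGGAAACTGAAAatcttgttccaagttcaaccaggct
Ifi44: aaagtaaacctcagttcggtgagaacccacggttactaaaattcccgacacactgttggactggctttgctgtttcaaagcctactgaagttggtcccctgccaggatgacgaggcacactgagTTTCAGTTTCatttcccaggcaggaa
Parp14: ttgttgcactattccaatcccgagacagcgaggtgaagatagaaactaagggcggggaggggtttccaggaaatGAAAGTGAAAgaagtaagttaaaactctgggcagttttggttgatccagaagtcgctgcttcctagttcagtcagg
Psmb10: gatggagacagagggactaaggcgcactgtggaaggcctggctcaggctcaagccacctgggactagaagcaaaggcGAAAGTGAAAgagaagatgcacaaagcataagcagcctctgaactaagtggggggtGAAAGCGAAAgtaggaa

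Counted from the gene's start, the first base of the match lay at -44 in Ifit3, -147 in Rsad2, -41 and -35 in Oas1a, -26 in Ifi44, -76 in Parp14, and -73 and -17 in Psmb10. Ifi44 had a further match at 27, inside the transcribed part, which is not shown. Parp9, Stat2 and Cxcl9, also among the genes of smallest p, held no match to the element in the window. For Isg15 and Usp18 no promoter was found. By role, the element was found in 7 of 9 promoters of antiviral effectors and in 4 of 4 of the peptide transport and class I assembly genes, but in 1 of 5 of the transcription factors, where the gamma-activated site was found in 3 of 5. The median log2 fold change was 0.30 over the 18 tested genes with the element and 0.28 over the 10 without it.

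After nephrectomy, 2 of the 34 tested genes rose at an adjusted p under 0.05 and none fell: Ifit3 (2.24-fold, 95% interval 1.67 to 3.00) and Parp9 (1.29-fold, 1.15 to 1.44). Only 1 sham rat gave an Ifit3 signal that stood well above background, so the size of its rise is uncertain: the log2 difference of 1.16 was 0.53 with normexp background correction (adjusted p = 0.0402), and without the filter on dim probes Ifit3 did not pass the test (adjusted p = 0.0549). Over all genes tested, 2.57% passed the same test in the upward direction and 1.02% in the downward direction, or 3.59% in either. The log2 fold change was above 0 in 31 of the 34 genes, against 49.9% of all genes, and its median was 0.31, against -0.000412 over all genes. Every nephrectomized rat lay above every sham rat for 10 genes (7.56% of all genes), and every nephrectomized rat lay below every sham rat for 2 (5.07% of all genes). At an unadjusted p under 0.05, 18 genes were higher (10.1% of all genes) and 1, Cxcl9, was lower (7.60% of all genes). The rat-to-rat spread was of the same order as most of these differences, and 32 of the 34 genes did not pass the test. The list was chosen with earlier results of these data known, so these shares describe it and were not tested.

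Dim probes were filtered: a probe was kept where all 4 rats of a group, or of both, gave a signal well above background. Of the 34 genes, 28 met this on all 8 arrays, 5 through the nephrectomized group alone and 1 (Cxcl9) through the sham group alone. The 5 were Ifit3 and Oasl, well above background in 1 of 4 sham rats, and Mx1, Mx2 and Zbp1, in 3 of 4. A gene let in by 1 group is more likely to differ, so the 28 are given apart: 1 of them (Parp9) rose, 26 had a log2 fold change above 0, the median was 0.29, 14 were higher at an unadjusted p under 0.05, and every nephrectomized rat lay above every sham rat for 8. All 17977 genes well above background on all 8 arrays were counted in the same way. Of these, 2.18% passed the test upward and 9.04% were higher at an unadjusted p under 0.05. The log2 fold change was above 0 in 8591 of them, with a median of -0.00796. Every nephrectomized rat lay above every sham rat for 7.08%. For 1 of the 28, and for 973 of the 17977, every nephrectomized rat lay below every sham rat. Ifit1 and Gbp5 were not well above background on any array. Oas1b, Xaf1, Ddx58, Irf8 and Igtp were not matched to a probe by accession and were not analysed here.

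**Figure D1:**
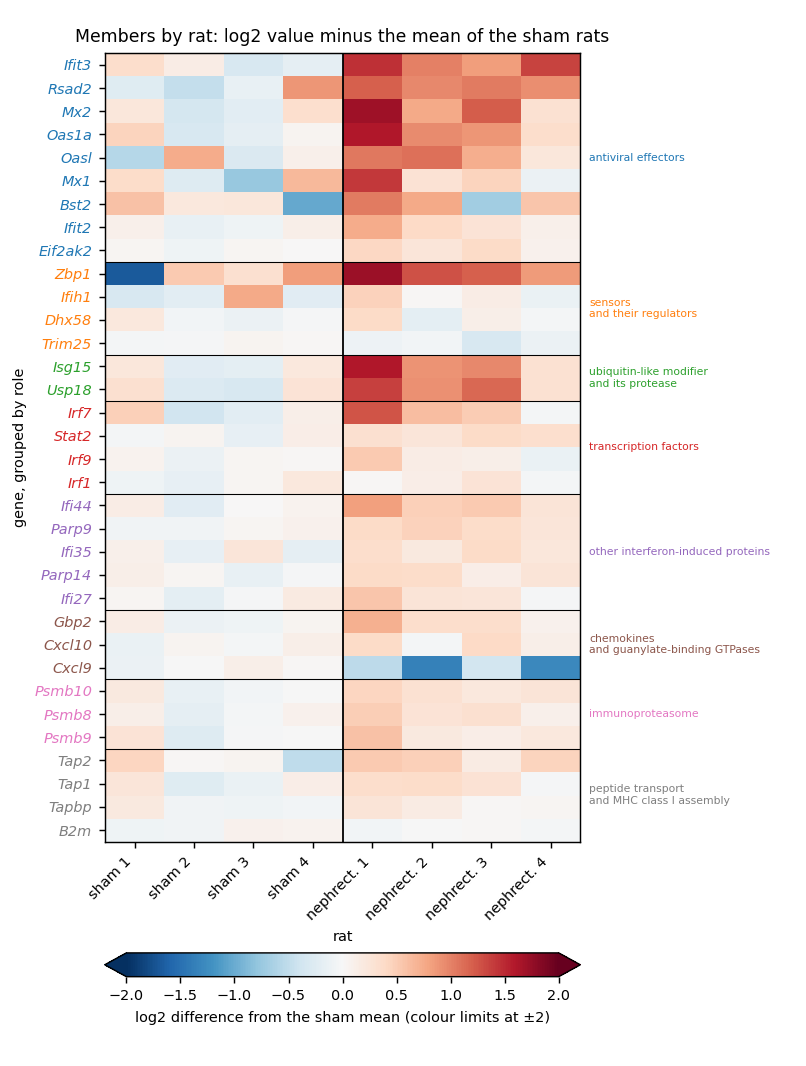
Each cell is 1 gene in 1 rat, coloured by its log2 value minus the mean of the 4 sham rats, with the 34 tested genes in rows by role and the 8 rats in columns. Nephrectomized rat 1 is the reddest column, nephrectomized rat 4 the palest of its group, and Cxcl9 is the row of deepest blue in the nephrectomized rats, with Trim25 pale blue in all 4.

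The antiviral effectors act on viral RNA, proteins or particles, and 9 of 12 were tested. Ifit3, a scaffold of the IFIT complex that binds foreign RNA, rose. Its log2 values were -4.14, -4.36, -4.81 and -4.68 in sham rats 1 to 4 and -3.03, -3.50, -3.67 and -3.15 in nephrectomized rats 1 to 4. The groups did not overlap, and the difference of 1.16 (SE 0.19, adjusted p = 0.0126) was larger than the spread within either group (SD 0.31 and 0.30, n = 4 each). The sham values lie near the lower limit of the array. Ifit2, a partner of Ifit3 in that complex, had -0.88, -1.12, -1.06 and -0.85 in the sham rats and -0.24, -0.58, -0.70 and -0.88 in the nephrectomized rats. Nephrectomized rat 4 lay within the sham range, and the difference of 0.38 (SE 0.14) did not pass the test (adjusted p = 0.192). A dimmer Ifit2 probe, well above background in 1 sham rat and 4 nephrectomized rats, gave 0.98.

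Rsad2 encodes viperin, a radical SAM enzyme that makes a chain terminator of viral RNA synthesis. Its sham values were -0.56, -0.79, -0.46 and 0.57, and its nephrectomized values were 0.88, 0.65, 0.72 and 0.62. Sham rat 4 stood well above the other sham rats and just under the lowest nephrectomized rat, so the groups did not overlap. The difference of 1.03 (SE 0.26) did not pass the test with all 8 rats (adjusted p = 0.0779), and leaving out each rat in turn gave 0.87 to 1.32 (adjusted p = 0.00412, without sham rat 4, to 0.191). Oas1a, an oligoadenylate synthetase that activates RNase L, had 1.95, 1.18, 1.33 and 1.56 in the sham rats against 3.11, 2.45, 2.38 and 1.86 in the nephrectomized rats. Nephrectomized rat 4 lay below sham rat 1, and the difference was 0.94 (SE 0.26, adjusted p = 0.100). Oasl, a related protein that lacks synthetase activity in the human form, had -5.47, -4.15, -5.19 and -4.79 in the sham rats and -3.84, -3.79, -4.18 and -4.67 in the nephrectomized rats. The groups overlapped, and its difference of 0.78 (SE 0.30) had an adjusted p of 0.217.

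Mx1 and Mx2 encode dynamin-like antiviral GTPases. Mx2 had -3.36, -3.93, -3.80 and -3.25 in the sham rats and -1.89, -2.83, -2.38 and -3.28 in the nephrectomized rats, in which rat 4 again lay inside the sham range. Its difference of 0.99 (SE 0.29) did not pass the test (adjusted p = 0.116). Mx1 differed by 0.51 with a 95% interval from -0.36 to 1.38. Eif2ak2 encodes PKR, the kinase that halts translation on double-stranded RNA, and its values were 0.26, 0.13, 0.27 and 0.24 against 0.65, 0.46, 0.60 and 0.32. The groups did not overlap, but the difference of 0.28 (SE 0.08) did not pass the test (adjusted p = 0.117), and the other Eif2ak2 probe gave 0.02. Bst2, or tetherin, which holds budding virus at the membrane, differed by 0.41 with an interval from -0.59 to 1.42, and its other probe also gave 0.41. Sham rat 4 (2.32) and nephrectomized rat 3 (2.65) were far below the other rats of their groups for Bst2, which lay between 3.56 and 4.38.

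**Figure D2:**
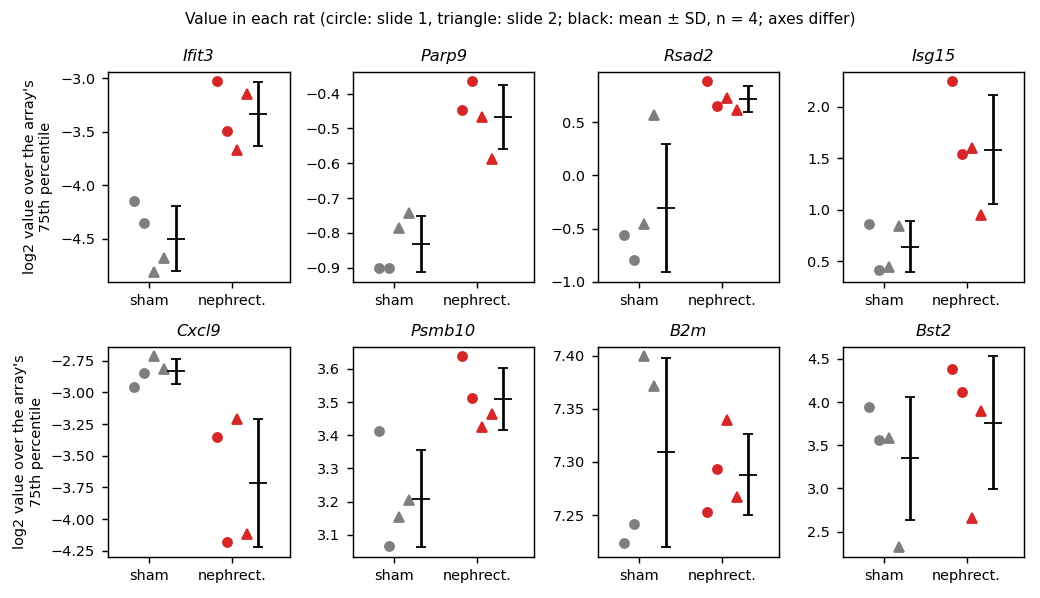
Each point is 1 rat's log2 value relative to the array's 75th percentile for 8 of the genes (circles slide 1, triangles slide 2), with the mean ± SD of 4 rats beside each group and a separate axis for each gene. The groups do not overlap for Ifit3, Parp9, Rsad2, Isg15, Cxcl9 and Psmb10, and overlap for B2m and Bst2.

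Isg15 is a ubiquitin-like protein that is conjugated to other proteins, and Usp18 is the protease that removes it and also dampens the type I receptor. Isg15 had 0.86, 0.41, 0.44 and 0.84 in the sham rats and 2.25, 1.55, 1.60 and 0.95 in the nephrectomized rats. Usp18 had -2.47, -3.05, -3.09 and -2.51 in the sham rats and -1.41, -1.86, -1.63 and -2.48 in the nephrectomized rats. In both genes nephrectomized rat 1 was the highest and nephrectomized rat 4 the lowest of its group, above every sham rat for Isg15 and just below sham rat 1 for Usp18. The differences of 0.94 for Isg15 (SE 0.25, adjusted p = 0.0881) and 0.93 for Usp18 (SE 0.25, adjusted p = 0.0842) did not pass the test. Leaving out each rat in turn gave 0.72 to 1.16 for Isg15 (adjusted p = 0.0390 to 0.215) and 0.79 to 1.15 for Usp18 (adjusted p = 0.0344 to 0.209), and both passed only without nephrectomized rat 4.

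Among the sensors and their regulators, 4 of 5 were tested and none passed the test. Zbp1, which binds Z-form nucleic acid and can trigger necroptosis, had -4.94, -2.72, -2.93 and -2.42 in the sham rats and -1.54, -1.98, -2.06 and -2.40 in the nephrectomized rats. The groups were apart by a narrow margin, and sham rat 1 lay far below all others and was the rat in which the probe was not well above background. The difference of 1.26 (SE 0.51, adjusted p = 0.243) was 0.69 without that rat. Ifih1 (MDA5) and Dhx58 (LGP2), sensors of viral double-stranded RNA, differed by 0.13 and 0.07. Trim25, the ubiquitin ligase that assists RIG-I, differed by -0.15 with an interval from -0.31 to 0.01, and all 4 nephrectomized rats lay below all 4 sham rats.

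Of the transcription factors, 4 of 5 were tested and none passed the test. Stat2, the subunit that gives the type I interferon factor its activation domain, had -2.50, -2.41, -2.64 and -2.33 in the sham rats and -2.14, -2.23, -2.08 and -2.13 in the nephrectomized rats. These groups did not overlap and nephrectomized rat 4 was not the lowest, but the difference of 0.33 (SE 0.08) fell short of the threshold (adjusted p = 0.0636). Irf7, which amplifies type I interferon production, differed by 0.59 with an interval from -0.05 to 1.22. Irf9, the DNA-binding subunit beside Stat2, differed by 0.17, and Irf1, an early target of interferon gamma, by 0.10.

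The other interferon-induced proteins were all tested, and Parp9 rose. Parp9 pairs with the ubiquitin ligase Dtx3l and acts in DNA repair and interferon signalling. Its values were -0.90, -0.90, -0.79 and -0.74 in the sham rats and -0.45, -0.37, -0.47 and -0.59 in the nephrectomized rats. The groups did not overlap, with a difference of 0.37 (SE 0.07, adjusted p = 0.0286). That call was lost (adjusted p = 0.0561 to 0.0910) when any one of sham rats 1, 2 and 3 or nephrectomized rats 1, 2 and 3 was left out.

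Parp14, a mono-ADP-ribosyltransferase of the same family, had -0.08, -0.15, -0.34 and -0.22 against 0.18, 0.17, -0.06 and 0.06. The groups did not overlap. The difference of 0.29 (SE 0.08) did not pass the test (adjusted p = 0.113) but did when the slide was a block (adjusted p = 0.0440). A dimmer Parp14 probe, well above background on all 8 arrays, gave 0.22 with overlapping groups. Ifi44, an interferon-induced protein first tied to microtubular aggregates, had 1.13, 0.76, 1.00 and 1.07 in the sham rats and 1.80, 1.46, 1.51 and 1.25 in the nephrectomized rats. Its groups did not overlap either, and its 3 probes gave 0.52, 0.48 and 0.43. The brightest, with SE 0.13, had an adjusted p of 0.0718. Ifi35, a leucine zipper protein that partners with Nmi, had 0.56, 0.31, 0.70 and 0.29 against 0.81, 0.67, 0.85 and 0.70, and the groups overlapped at sham rat 3. Its difference was 0.29 (SE 0.10, adjusted p = 0.186), and that of Ifi27, a mitochondrial membrane protein, was 0.26.

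Cxcl9 and Cxcl10 are chemokines that draw activated T and natural killer cells through the receptor CXCR3. Cxcl9 had -2.96, -2.85, -2.72 and -2.82 in the sham rats and -3.36, -4.18, -3.21 and -4.12 in the nephrectomized rats. All 4 nephrectomized rats lay below all 4 sham rats, and they spread more widely (SD 0.51, against 0.10). The difference of -0.88 (SE 0.22) did not pass the test (adjusted p = 0.0745), and leaving out each rat in turn gave -1.05 (adjusted p = 0.0374, without nephrectomized rat 3) to -0.73 (adjusted p up to 0.189). Cxcl10 differed by 0.21 with an interval from -0.04 to 0.46. Gbp2, a guanylate-binding GTPase that attacks the vacuoles of intracellular pathogens, had 1.51, 1.25, 1.28 and 1.42 against 2.07, 1.72, 1.71 and 1.45. Nephrectomized rat 4 lay inside the sham range, and the difference was 0.37 (SE 0.13, adjusted p = 0.167).

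The immunoproteasome subunits Psmb8, Psmb9 and Psmb10 replace the catalytic subunits of the constitutive proteasome and favour peptides that bind MHC class I. Psmb10 had 3.41, 3.07, 3.15 and 3.20 in the sham rats and 3.64, 3.51, 3.42 and 3.46 in the nephrectomized rats. Its groups were apart by a narrow margin, since sham rat 1 lay just under nephrectomized rat 3. Psmb8 had 0.98, 0.68, 0.82 and 0.94 against 1.35, 1.13, 1.17 and 0.96, with nephrectomized rat 4 inside the sham range. The differences were 0.30 (SE 0.09, adjusted p = 0.114) for Psmb10, 0.30 (SE 0.10, adjusted p = 0.163) for Psmb8 and 0.28 (SE 0.13, adjusted p = 0.333) for Psmb9, and none passed the test. Leaving out each rat in turn gave 0.25 to 0.37 for Psmb10 (adjusted p = 0.0438, without sham rat 1, to 0.258).

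Tap1 and Tap2 form the transporter that carries peptides into the endoplasmic reticulum, Tapbp (tapasin) joins it to the class I molecule, and B2m is the light chain of that molecule. Tap2 had 1.40, 1.00, 1.03 and 0.46 in the sham rats and 1.50, 1.45, 1.14 and 1.43 in the nephrectomized rats. The sham rats spread most, from sham rat 4 to sham rat 1, and the groups overlapped, with a difference of 0.40 (SE 0.18, adjusted p = 0.304). Tap1 differed by 0.25 and Tapbp by 0.12, and neither passed the test. For B2m the difference was -0.02 with an interval from -0.17 to 0.12 (adjusted p = 0.902), and its 4 probes gave -0.02 to -0.10.

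**Figure D3:**
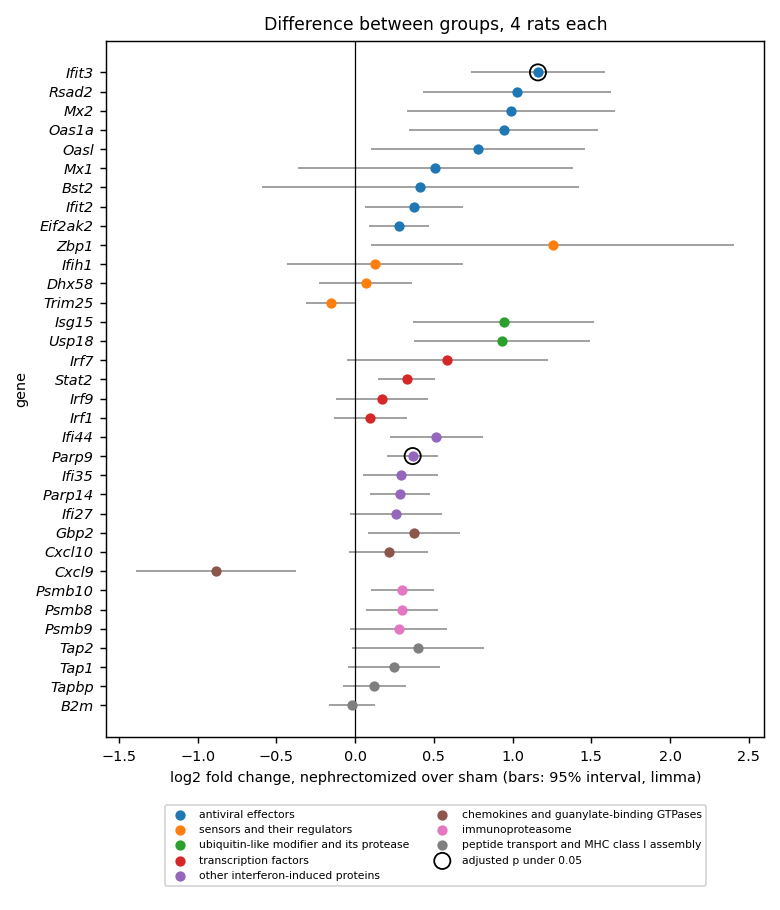
Points are the log2 fold change of nephrectomized over sham rats for the 34 tested genes, coloured by role, with the 95% interval from limma as bars and a ring around the genes past the threshold. The 2 ringed genes are Ifit3 and Parp9, and 31 of the 34 points lie above 0.

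By role, the median log2 fold change was 0.41 over the 5 antiviral effectors well above background on all 8 arrays. Over all 9 tested it was 0.78, the value of Oasl, but 4 of these (Ifit3, Oasl, Mx1 and Mx2) passed the filter through the nephrectomized group alone. The median was 0.94 over Isg15 and Usp18, 0.30 over the 3 immunoproteasome subunits and 0.29 over the 5 other interferon-induced proteins. It was 0.25 over the 4 transcription factors, 0.21 over the 3 chemokines and guanylate-binding GTPases (0.29 over the 2 on all 8 arrays), 0.18 over the 4 peptide transport and assembly genes and 0.10 over the 4 sensors (0.07 over the 3 on all 8 arrays). Differences between roles were not tested.

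The rats of the nephrectomized group were unequal across the list. Nephrectomized rats 1, 2, 3 and 4 lay above every sham rat for 29, 23, 23 and 12 of the 34 genes, whereas over all genes these shares were 27.3%, 24.3%, 27.6% and 25.3%. Their median distance from the sham mean was 0.52, 0.33, 0.33 and 0.16. Nephrectomized rat 1 was the highest of its group for 24 genes, and rat 4 was the highest for 0 and the lowest for 20. In the sham group, rat 1 was the highest for 17 genes and rat 2 the lowest for 17. For Ifit3 and Stat2, however, nephrectomized rat 4 was next to the highest of its group. The counts by rat, and those by slide over the 34 genes, include the 5 genes let in by the nephrectomized group alone.

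The fold changes also differed in size between slides, and each slide carried different rats, so slide and rat cannot be told apart. On slide 1, with rats 1 and 2 of each group, the median log2 fold change was 0.45, and on slide 2, with rats 3 and 4, it was 0.23. The fold change was larger on slide 1 for 29 of the 34 genes, against 52.7% of all genes. For the 28 genes well above background on all 8 arrays, the medians were 0.37 on slide 1 and 0.22 on slide 2. Of these 28, 24 had the larger fold change on slide 1. Both nephrectomized rats lay above both sham rats for 27 of the 34 genes on slide 1 (21.6% of all genes) and for 19 on slide 2 (22.4% of all genes). In limma with a term for group by slide, that term passed the test for 0 of the 34 genes and 0 of all genes. At an unadjusted p under 0.05 for that term the count was 0 of the 34, against 551 of all 19865 genes. Within 1 slide, with 2 rats against 2, no gene of the list passed the test, and 16 (slide 1) and 6 (slide 2) were higher at an unadjusted p under 0.05, against 5.16% and 6.91% of all genes. With the slide as a block, 3 genes rose (Ifit3, Parp9 and Parp14), against 2.84% of all genes.

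**Figure D4:**
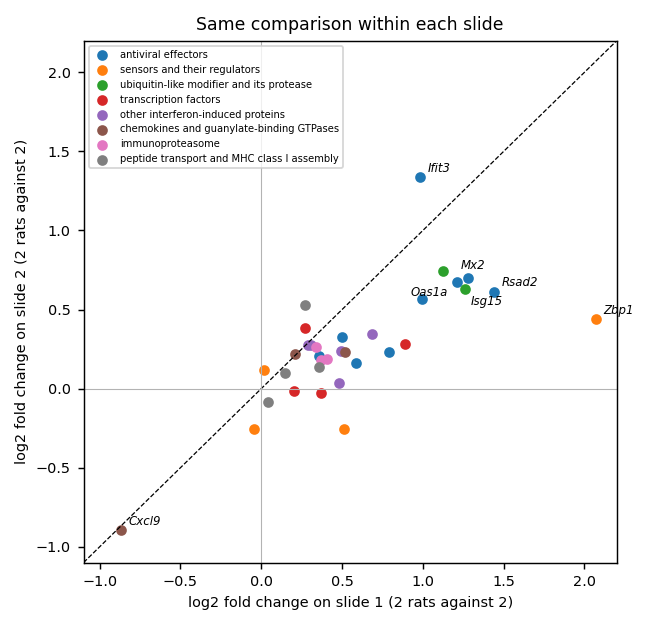
Each point is 1 of the 34 genes, placed by its log2 fold change on slide 1 (2 rats against 2) and on slide 2 (2 rats against 2), coloured by role, with a dashed line where both are equal. Of the 34 points, 29 lie below the line, Ifit3 lies above it, and Cxcl9 is near -0.87 on slide 1 and -0.90 on slide 2.

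Around these genes, other lists of the pathway were counted. Among 27 other interferon-stimulated genes tested (of 49), 4 rose (2.57% of all genes) and 1 fell (1.02% of all genes). Their median log2 fold change was 0.18. Cmpk2, a mitochondrial nucleotide kinase whose gene neighbours Rsad2 in mammals, rose by 0.80 (SE 0.12, adjusted p = 0.0103). Ube2l6, the conjugating enzyme for Isg15, rose by 0.78 (SE 0.13, adjusted p = 0.0170). Trim14 (0.27, adjusted p = 0.0377) and the immunity-related GTPase Irgm (0.59, adjusted p = 0.0382) also rose. Tnfsf10, the death ligand TRAIL, fell by 0.53 (SE 0.09, adjusted p = 0.0164). Between 1 and 4 genes of this list rose when a rat was left out, against 1.41% to 2.50% of all genes. There was 1 without sham rat 2, 3 or 4, and there were 2 without nephrectomized rat 2 or 3.

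The median log2 fold change of the 19 receptor and signalling genes tested (of 27) was -0.10, and 18 of the 19 did not pass the test. The interferon gamma receptor chain Ifngr1 (-0.27, adjusted p = 0.111) and Irf5 (0.32, adjusted p = 0.0929) did not pass the test. Of the 15 symbols listed as ligands, which include interleukins, 8 were matched. Only the interleukin Il18 was tested (-0.03), so no interferon gene was tested. Ifnb1 and Ifng were not well above background on any array, and Ifna4, Ifna5 and Ifnk were so on 3, 1 and 1 of the 8 arrays. None of 16 MHC class I chain and loading genes (median 0.02) and 8 MHC class II genes (0.03) passed the test in limma. Nor did any of 19 genes of the constitutive proteasome and its activators (0.05). At an unadjusted p under 0.05 the counts were 0, 0 and 1, the last being the proteasome activator Psme2 (0.19). Every nephrectomized rat lay above every sham rat for 0, 0 and 3 genes (7.56% of all genes). The log2 fold change was above 0 in 9 of 16, 6 of 8 and 15 of 19 genes (49.9% of all genes). The class I chains are near-identical copies, so their probes can share mRNA.

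**Figure D5:**
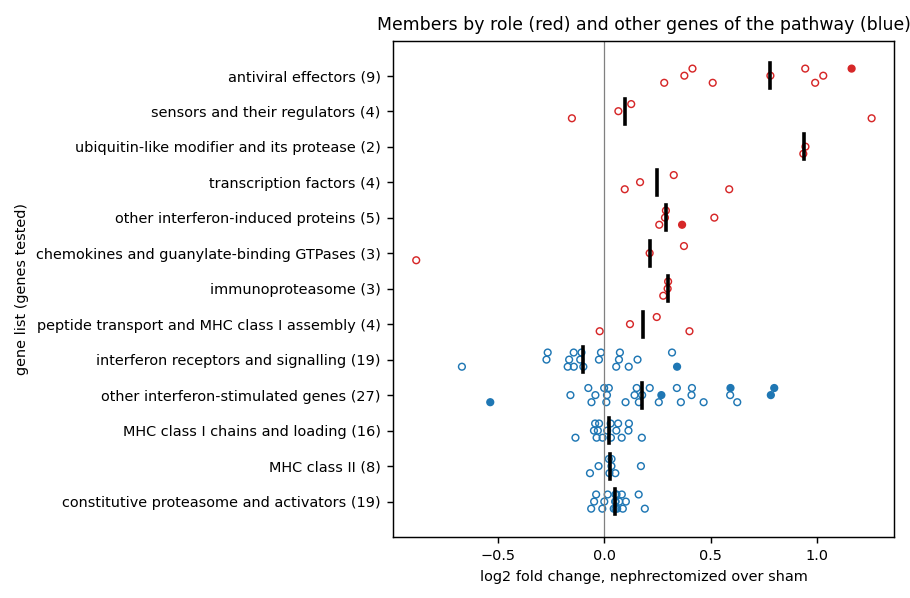
Each point is 1 gene's log2 fold change of nephrectomized over sham rats, red for the 34 genes by role and blue for other lists of the pathway, filled where the adjusted p was under 0.05, and the black bar is the median of the list. Isg15 and Usp18 (median 0.94) lie to the right. The antiviral effectors spread from 0.28 to 1.16, with 4 of the 9 let in by the nephrectomized group alone. The MHC class I list, the class II list and the list of the constitutive proteasome and its activators lie around 0.

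Leukocyte markers were read beside these values because such cells carry the same genes. Of 3 tested pan-leukocyte markers, none passed the test: Ptprc differed by -0.18, Laptm5 by 0.01 and Coro1a by 0.30. Their linear levels, relative to the array's 75th percentile, were summed. The sum was 15.2 to 19.3 in the sham rats and 17.9 to 20.7 in the nephrectomized rats. In this sum and those below, the brightest probes weigh most. The mean sham log2 value was -2.10 for Ptprc, 3.24 for Laptm5 and 2.90 for Coro1a. Of 8 macrophage markers tested (of 10), Mrc1, the mannose receptor, fell by 0.59 (SE 0.09, adjusted p = 0.00988) and the other 7 did not pass the test, with a summed level of 46.9 to 60.5 against 49.6 to 63.2. None of 3 T cell markers (of 7) or 5 natural killer cell markers (of 6) passed, and the T cell markers Cd2 and Cd4 were well above background on 0 of 8 arrays. No dendritic cell or B cell marker passed the filter. Of 5 neutrophil markers, 2 were tested, and Csf3r and Cxcr2 were well above background on 0 of 8 arrays. The 2 tested, S100a8 (-1.01, adjusted p = 0.121) and S100a9 (-0.78, adjusted p = 0.128), did not pass the test. With the slide as a block both passed (adjusted p = 0.0172 and 0.0106). The share of all genes lower in that setting was not counted. None of 5 endothelial and 2 adipocyte markers passed. The summed level of the erythroid genes Hbb and Alas2, neither of which passed, was 1.50 to 13.5 in the sham rats, highest in sham rat 4, and 2.04 to 4.85 in the nephrectomized rats. Of the adrenal cortex markers, Cyp17a1 rose by 0.54 (adjusted p = 0.0222), and Cyp11b1 and Cyp11b2 were well above background on 0 of 8 arrays. The Cyp17a1 probe was dim, well above background in 3 of 4 sham rats, and passed the filter through the nephrectomized group alone. The part of these cells in the differences was not tested, and in whole-kidney RNA fewer cells of a type and less RNA per cell cannot be told apart.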

How the data were processed

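Total RNA of 8 rat kidneys was labelled with Cy3 and hybridised to Agilent arrays of design 014879. The authors' scanner files came from Feature Extraction 10.5.1.1 and, per the file headers, protocol GE1_105_Dec08. They hold each spot's intensity on a linear scale as deposited, background-subtracted within the array and not scaled between arrays. A second deposited file holds log2 values of 30448 probes. Set against the scanner files (r = 0.9999), these were the same 75th-percentile scaling centred on each probe's median, with column medians from -0.0171 to 0.015, and they served as an alternative.

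Here, processed intensities were put on a log2 scale and averaged per probe without outlier and control spots, and the 75th percentile of the array's gene probes was subtracted. A probe was kept (23982 of 41012) where every array of 1 group or both found it well above background, and the brightest stood for its gene. RefSeq accessions, without versions, gave a symbol to 18713 probes through a gene table of GRCr8. The files name rn4 as the annotation build, so array coordinates are not given. The test was limma's moderated fit (version 3.58.1 in R 4.3.3, two-sided, without covariates), Benjamini-Hochberg adjusted over 19865 genes, with a threshold of 0.05. The number of arrays limits the precision. The script was tested on simulated data.

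The genes and lists were chosen with earlier results of these data known. Values in every rat are given for genes past the threshold, the gene of smallest p in each role and the 20 of smallest p. Up to 3 genes of smallest p are named per other list, and further names were chosen after their values were seen. Same-numbered rats deviated together with r of 0.104, 0.012, 0.101 and -0.0183 across genes, so the numbers were not taken as pairs. The settings varied were the scaling (quantile, or the median of detected probes), normexp background correction with offset 50 on the median spot intensity, the deposited log2 values, a looser and a stricter filter, the mean of a gene's probes, array weights, replicate number or slide as a block, each slide alone and each rat left out. A gene of the receptor and signalling list is not reported here.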

Additional observations from a re-analysis of the deposited data

Results flagged for a closer look

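In each group of 4 rats, the gap between the most extreme rat and its nearest neighbour was divided by the range of the group, for 68 groups (34 genes in 2 groups). The ratio was above Dixon's 95% critical value for 4 samples in 2 of them, and chance gives about 1 in 20. For Ifih1 in the sham rats it was 0.902, with sham rat 3 at -2.13 and the others between -3.21 and -3.10. For Tapbp in the sham rats it was 0.88, with sham rat 1 at 1.67 and the others between 1.39 and 1.42. Neither gene passed the test between groups.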

How the results depend on the processing

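The median log2 fold change of the genes stayed above 0 under every alternative run, from 0.23 within slide 2 to 0.45 within slide 1, and none of the 20 genes given by rat changed sign. Counts moved more. With normexp, 4 of the genes (2.28% of all genes tested) and 2 other interferon-stimulated genes rose, and Ifit3 was 0.53 in place of 1.16. Without the filter on dim probes 0 and 1 rose and 282 genes in all were called (0.692% higher), and with all 8 arrays required 1 of the listed genes rose (2.26%), as Ifit3 was then not tested. Array weights called 2259 genes, 1260 of them higher (6.34% of all genes) and the rest lower. Of the listed genes, 6 were then higher and 1 (Cxcl9) lower. With the replicate number as a block, 296 genes were called, 1 of the listed genes (Ifit3, against 1.22% of all genes) and 2 other interferon-stimulated genes rose, and Parp9 had an adjusted p of 0.110. Within slide 1 no gene was called (0 listed, 0 other interferon-stimulated genes), and within slide 2 141 were called (0 and 0). Leaving out each rat gave 341 to 720 genes called, against 714 with all rats. Of the listed genes, 1 to 4 were higher (1.41% to 2.50% of all genes), against 2 with all rats. Between 0 and 1 were lower, against 0 with all rats, where 1.02% of all genes were lower. Between 1 and 4 other interferon-stimulated genes were higher, against 4 with all rats. The median of the listed genes was 0.25 to 0.36, against 0.31. Without nephrectomized rat 4, sham rat 3, sham rat 2, sham rat 4 or nephrectomized rat 2 the genes called numbered 342, 341, 396, 427 and 457. Ifit3 passed the test without any one rat (adjusted p = 0.0112 to 0.0488) and missed it without the filter (0.0549). The causes of these moves were not tested. Probes near background, Ifit3, Oasl, Mx1, Mx2, Zbp1 and Cxcl9 among them, limit what a fold change can show.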
